A study of Homo sapiens with 23 samples.

Results

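The genes of the epithelial-mesenchymal transition (EMT) were followed through the regions listed for histone propionylation, butyrylation and acetylation in SW480 cells. The set held 10 of the 20033 protein-coding genes of GENCODE 44 and was chosen by gene name, with no measured value in the rule. CDH1 and EPCAM were the 2 epithelial genes, and CDH2, VIM, FN1, ZEB1, ZEB2, SNAI1, SNAI2 and TWIST1 were the 8 mesenchymal genes. The window of a gene was its annotated body with 5 kb on both sides, and a start site counted as occupied when a region overlapped the 1 kb on either side of the start of its Ensembl canonical transcript.

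SW480 is an established human colorectal cancer line, labelled as colon epithelium. Sodium propionate (NaPr, 10 mM) was the treatment for the propionyl marks H3K18pr and H4K12pr, and sodium butyrate (NaBu, 1 mM) was that for the butyryl marks H3K18bu and H4K12bu. The acetyl marks H3K18ac and H4K12ac were followed under NaPr, under NaBu and without treatment. Chromatin immunoprecipitation and sequencing (ChIP-seq) gave 2 replicates in each of the 10 groups, and 1 input of chromatin without immunoprecipitation was taken for each condition. The title of the input taken as untreated reads acet_input and does not name the treatment. Nothing in the labels says that replicates came from separate cultures, so p-values measure the spread between these libraries, which may be technical. All libraries came from 1 cell line, and more marked cells cannot be told apart from more mark per cell.

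EMT is the switch by which epithelial cells lose their junctions and polarity and gain a motile, fibroblast-like state. E-cadherin, the CDH1 product, holds neighbouring epithelial cells together, and the SNAI, ZEB and TWIST transcription factors are best known for repressing it, SNAI and ZEB proteins by binding the E-box CAGGTG. In colorectal tumours the switch is linked to invasion, and acylation of H3K18 and H4K12 is a class of mark found at active promoters and enhancers.

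The sequences below are those on which the positions reported here turn. CDH1 intron 2 held 3 stretches that were inside a region of all 20 immunoprecipitated libraries, stretch 2 at chr16:68760460-68760717 and stretch 3 at chr16:68761308-68761342. EPCAM had its most often covered place outside the start site at chr2:47345458-47345657. These 3 are printed from the plus strand of hg38 and held no E-box.
CDH1 intron 2, stretch 2: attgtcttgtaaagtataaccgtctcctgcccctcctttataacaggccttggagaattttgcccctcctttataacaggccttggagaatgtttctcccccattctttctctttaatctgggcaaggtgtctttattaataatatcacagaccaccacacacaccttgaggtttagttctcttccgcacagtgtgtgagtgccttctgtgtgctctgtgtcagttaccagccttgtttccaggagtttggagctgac
CDH1 intron 2, stretch 3: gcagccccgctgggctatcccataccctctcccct
EPCAM upstream place: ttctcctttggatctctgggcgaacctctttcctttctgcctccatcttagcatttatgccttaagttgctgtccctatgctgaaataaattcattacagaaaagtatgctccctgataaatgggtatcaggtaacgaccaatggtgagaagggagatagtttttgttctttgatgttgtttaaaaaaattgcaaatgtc

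Promoter sequences were taken from RefSeq (GRCh38.p14), as the 250 bases before the RefSeq start and on the strand of the gene, for the 5 members that matched by symbol: CDH2, VIM, FN1, ZEB1 and ZEB2. CDH1, EPCAM, SNAI1, SNAI2 and TWIST1 were not matched. The E-box, searched as CAGGTG and as CACCTG on the other strand and printed in capitals, was found in 1 of the 5, ZEB1, and in 17.5% of all 35116 RefSeq promoters. Those of ZEB1 (chr10:31318167-31318416, plus strand) and VIM (chr10:17227991-17228240, plus strand) are shown because their start sites were occupied in most libraries, and that of CDH2 (chr18:28177131-28177380, minus strand) because its start site was occupied in none. The ZEB1 E-box lay at bases -57 to -52 from the RefSeq start, which is 799 bases from the canonical start used for occupancy.
ZEB1 promoter: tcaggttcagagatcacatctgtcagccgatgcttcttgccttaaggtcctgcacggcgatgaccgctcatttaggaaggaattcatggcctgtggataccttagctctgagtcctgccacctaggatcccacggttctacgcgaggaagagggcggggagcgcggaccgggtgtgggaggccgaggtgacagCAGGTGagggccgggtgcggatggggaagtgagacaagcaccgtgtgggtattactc
VIM promoter: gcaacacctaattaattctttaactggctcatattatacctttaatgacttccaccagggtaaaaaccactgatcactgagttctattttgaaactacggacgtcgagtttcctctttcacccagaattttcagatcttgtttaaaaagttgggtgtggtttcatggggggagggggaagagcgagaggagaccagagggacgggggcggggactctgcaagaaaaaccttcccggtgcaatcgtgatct
CDH2 promoter: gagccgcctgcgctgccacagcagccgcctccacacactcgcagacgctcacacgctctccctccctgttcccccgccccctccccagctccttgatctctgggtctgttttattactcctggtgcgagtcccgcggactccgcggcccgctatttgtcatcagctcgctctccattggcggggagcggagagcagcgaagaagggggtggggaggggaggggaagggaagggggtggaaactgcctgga

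The lists differed in length and in local background. They held 8158 to 208823 regions, and the local background recovered from fold and p-value was 3.95 to 40.9 fragments per kb. Regions occupied the start sites of 7.94% to 70.2% of protein-coding genes in immunoprecipitated libraries and of 2.98% to 18.8% in the inputs. By coverage over all genes, 12 of 20 libraries were most like their own replicate. H3K18ac NaPr replicate 1 stood apart, with 202787 regions against 95194 in its replicate, and H4K12ac NaBu replicate 2 had 11680 against 88658. Coverage is therefore given as the percentage of the gene window inside regions and also as a percentile of that percentage among all protein-coding genes of the same library, where genes without a region share a middle rank. That rank was higher where more genes were empty, 30.9 to 39.5 in butyryl and 7.61 to 9.63 in propionyl libraries. Any gene with a region lies above it, so percentiles of unlike lists start from unlike floors. Tags in the names of the lists put the propionyl libraries in a set of their own, the NaPr and untreated acetyl libraries in another and all NaBu libraries in another. These sets are read here as runs, which the sample titles do not name.

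The 10 genes fell into a covered and a sparse group that did not follow the epithelial and mesenchymal classes. Window length followed this division except for CDH1, and a region of given size covers a smaller percentage of a longer window. Windows of SNAI2, SNAI1, VIM and EPCAM had 14143, 15907, 19353 and 52444 bp. Those of FN1, TWIST1, ZEB2, ZEB1 and CDH2 had 85634, 106646, 166694, 221320 and 255068 bp, and that of CDH1 had 108246 bp. The part of window length in this division was not tested. Median coverage percentiles over the 20 immunoprecipitated libraries were 95.5 for SNAI2, 88.8 for VIM, 88.5 for EPCAM, 87.7 for CDH1 and 80.0 for SNAI1. They were 34.8 for FN1, 28.8 for ZEB1, 23.3 for TWIST1, 22.4 for ZEB2 and 10.0 for CDH2. Neighbours at the top of this order changed places between libraries: VIM lay above EPCAM in 10 of 20 and CDH1 above SNAI1 in 12. SNAI1 lay above FN1 in 14 of 20 and below it in 2, and ZEB2 lay above CDH2 in 14 and never below it.

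**Figure D1:**
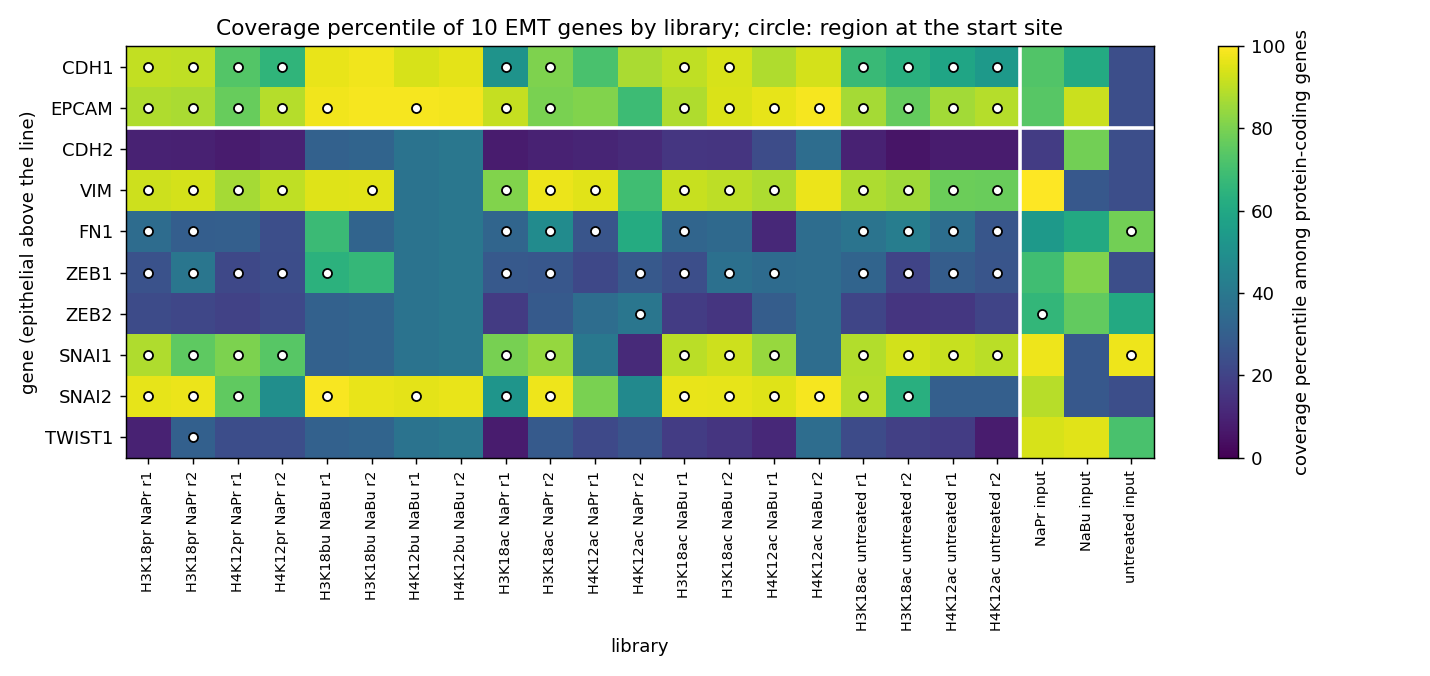
Coverage percentile of each of the 10 genes (rows, epithelial above the white line) in the 20 immunoprecipitated libraries and 3 inputs (columns), where r1 and r2 are replicates and a white circle marks an occupied start site. CDH1 and EPCAM stayed at or above the percentile of 51.2 in all 20 immunoprecipitated libraries, and CDH2 had no occupied start site.

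Start sites gave the same division with ZEB1 and FN1 on the occupied side. EPCAM was occupied in 16 of 20 libraries, VIM and ZEB1 in 15 each, SNAI1 and SNAI2 in 13 each, CDH1 in 12 and FN1 in 10. TWIST1 and ZEB2 were occupied in 1 library each and CDH2 in 0, which it shared with 15.5% of all protein-coding genes. Counted over pairs of gene and library, 70% were occupied for the epithelial genes and 42.5% for the mesenchymal genes, against 44.4% for all protein-coding genes. In the inputs FN1 and SNAI1 were occupied in untreated cells and ZEB2 in NaPr cells.

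Mean coverage of the 2 epithelial genes was above that of the 8 mesenchymal genes in 20 of 20 libraries. The difference ran from 0.0384 to 11.4 percentage points of the window, with a median of 5.00. The median was 2.29 with an equal number of regions from each list, 2.38 over the canonical transcript span, chosen after seeing the data, and 3.33 without regions over input peaks. On the percentile scale it ran from 26.6 to 50.9, with a median of 40.2. In the inputs it was -1.23 points in NaPr, 0.196 in NaBu and -0.725 in untreated cells. The smallest difference in percentage points was in H3K18ac NaPr replicate 2. The mesenchymal mean joined genes of unlike level: VIM, SNAI1 and SNAI2 had a median percentile of 87.8, and the other 5 mesenchymal genes one of 26.9. Those 5 also had longer windows, of 85634 to 255068 bp against 14143 to 19353 bp, and the part of window length was not tested.

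**Figure D2:**
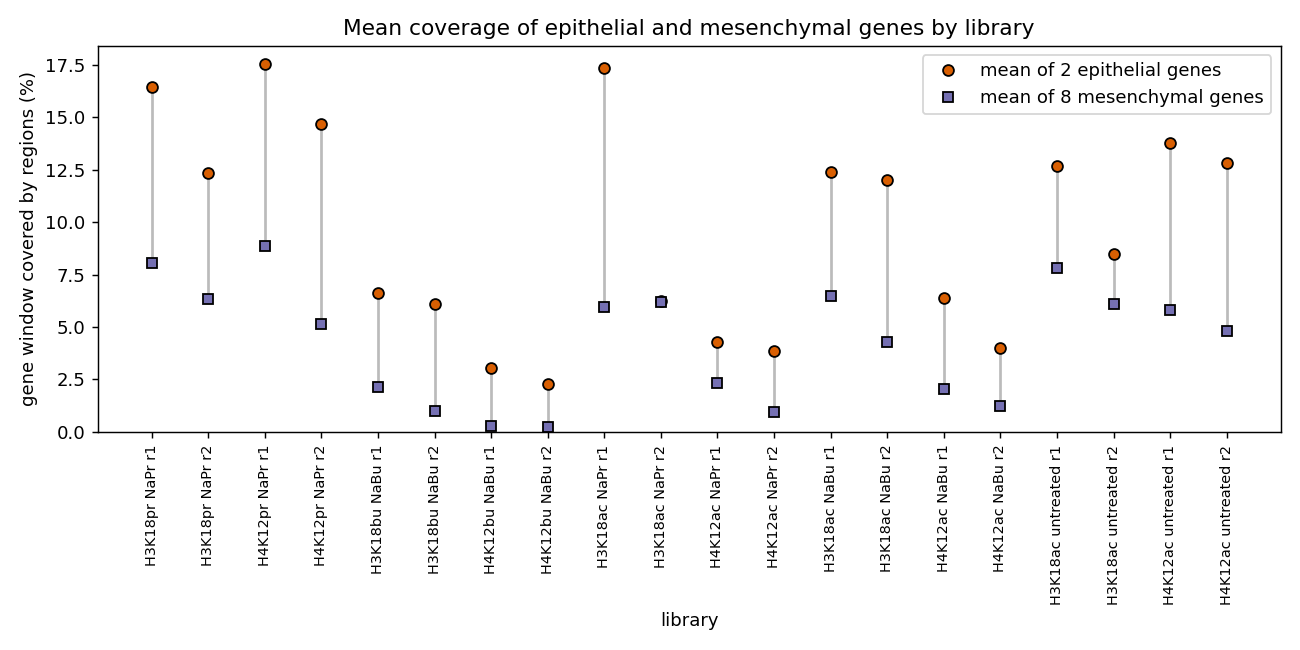
Percentage of the gene window covered by regions, as the mean of the 2 epithelial genes (circles) and of the 8 mesenchymal genes (squares) in each of the 20 immunoprecipitated libraries, joined by a grey line. Each circle lies above its square, by 0.0384 to 11.4 points.

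CDH1 (chr16:68737292-68835537, plus strand) was marked inside its second intron in every immunoprecipitated library, whether or not its start site was occupied. Intron 2 runs from 1.12 to 64.4 kb downstream of the start, and the interval from 17 to 25 kb held regions in 20 of 20 libraries, with 22.2% to 91.6% of its length covered. A stretch inside a region of all 20 libraries, of which CDH1 had 3 with 575 bp together, was present in the windows of 4.95% of protein-coding genes. The 3 CDH1 stretches lay at 19.4 to 19.6, 23.2 to 23.4 and 24.02 to 24.05 kb downstream, and none of the 3 inputs had a region in the interval. The interval was chosen after its values were seen.

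The start site of CDH1 behaved otherwise. It was occupied in 6 of 8 NaPr libraries, 2 of 8 NaBu libraries and 4 of 4 untreated libraries. Those without it were both replicates of H3K18bu, H4K12bu, H4K12ac NaPr and H4K12ac NaBu. The interval in intron 2 held 32.5% to 61.7% of the covered bases of CDH1 in NaPr, 40.4% to 59.2% in untreated cells and 50.4% to 100% in NaBu. Here and below, the strongest region of a gene is the one with the smallest p-value in the list. The strongest CDH1 region had its summit between 17 and 25 kb downstream in 18 of 20 libraries. In the 2 untreated H4K12ac libraries it lay at -4.96 and -4.54 kb, upstream of the start. With an equal number of regions from each list, the 8158 strongest, the interval still held a region in 16 of 20 libraries and the start site in 1.

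**Figure D3:**
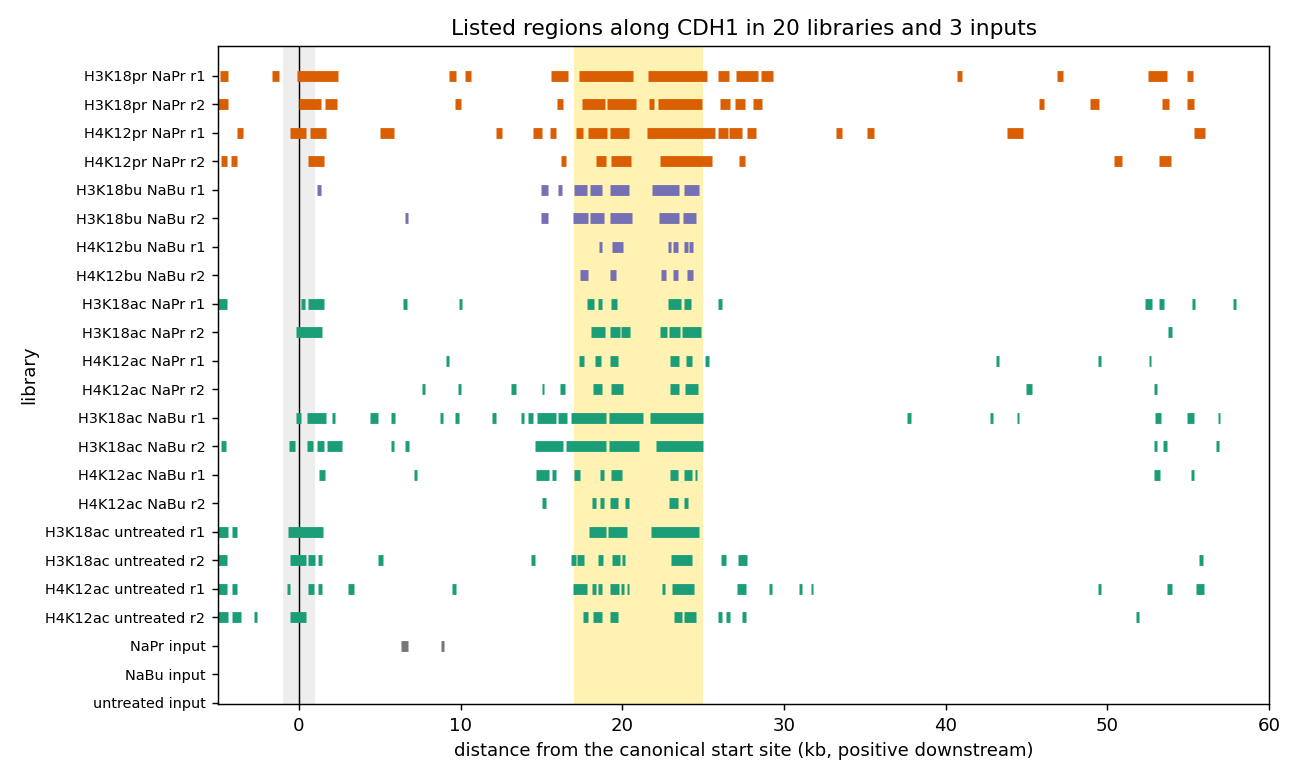
Regions listed along CDH1 (bars) in each library, by distance from the canonical start site in kb, from 5 kb upstream to 60 kb downstream. Orange is propionyl, purple butyryl, green acetyl and grey input, with the 2 kb around the start site shaded grey and the interval from 17 to 25 kb shaded yellow. All 20 immunoprecipitated libraries have bars in the yellow interval, and 8 have none in the grey one.

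Coverage of CDH1 was higher under the propionyl than under the acetyl marks of NaPr cells. H3K18pr libraries had 17.5% and 13.3%, against 6.58% and 6.31% in H3K18ac libraries. H4K12pr libraries had 16.4% and 8.14%, against 3.58% and 5.08% in H4K12ac libraries. In NaBu cells it was 5.78% and 5.36% in H3K18bu, 1.64% in both H4K12bu libraries, 13.4% and 11.8% in H3K18ac, and 4.45% and 2.17% in H4K12ac. Untreated cells had 8.004% and 6.57% in H3K18ac and 7.84% and 6.01% in H4K12ac. Within a treatment, propionyl libraries lay above acetyl libraries at both histone sites and butyryl libraries below them, while H3K18ac of NaBu cells reached as high as part of the propionyl libraries. As a percentile, however, CDH1 stood at 94.1 to 97.7 in the 4 butyryl libraries, above 88.3 to 94.0 in the acetyl libraries of NaBu cells when each histone site was read by itself. Empty genes held 30.9 to 39.5 in these butyryl libraries, and the part of that floor was not tested. The inputs covered 1.25%, 0.178% and 0% of the window in NaPr, NaBu and untreated cells.

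EPCAM (chr2:47345158-47387601, plus strand), which encodes an adhesion molecule of epithelial cells and a surface marker of colon epithelium, had its strongest region in different places by treatment. Its canonical start lies 24153 bp downstream of the 5′ end of the annotated gene, which other transcripts use and where the noncoding gene EPCAM-DT also starts within 1 kb. In the 8 NaBu libraries the strongest summit lay between -24.5 and -23.7 kb of the canonical start, within 1 kb of that 5′ end in 8 of 8. In the 4 untreated libraries it lay 0.116 to 0.423 kb downstream of the canonical start. In NaPr it was within 1 kb of the canonical start in 6 of 8 libraries, and in H4K12ac NaPr it lay at -14.6 kb in replicate 1 and at 16.1 kb in replicate 2. By fold, the canonical start was above the 5′ end in H3K18ac NaBu replicate 1 (13.8 against 13.2). This also held in H4K12bu replicate 1 (3.75 against 3.15), and in no other NaBu library.

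In how much of each end was covered, NaBu libraries were lower than untreated ones at the canonical start, with medians of 13.2% and 84.4%. They were not higher at the 5′ end, with medians of 80.7% and 86.0%. Regions covered 46.9% to 100% of the 2 kb around the 5′ end in NaBu, 0% to 88.1% in NaPr and 59.3% to 100% in untreated libraries. Around the canonical start they covered 0% to 56.4% in NaBu, 0% to 86.3% in NaPr and 79.5% to 93.8% in untreated libraries. NaBu and untreated libraries therefore did not overlap at the canonical start and did at the 5′ end. The share of all genes with such a pattern was not computed, and the 5′ end interval was chosen after the regions were seen. With equal numbers of regions 13 of 20 libraries had a region at the 5′ end, and 15 without regions over input peaks. At the canonical start these were 15 and 16. The NaBu input had a region over 12.6% of the 5′ end and none at the canonical start, and the other inputs had none at either. All NaBu libraries fell in 1 run as read from the list names, and treatment and run cannot be told apart here.

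**Figure D4:**
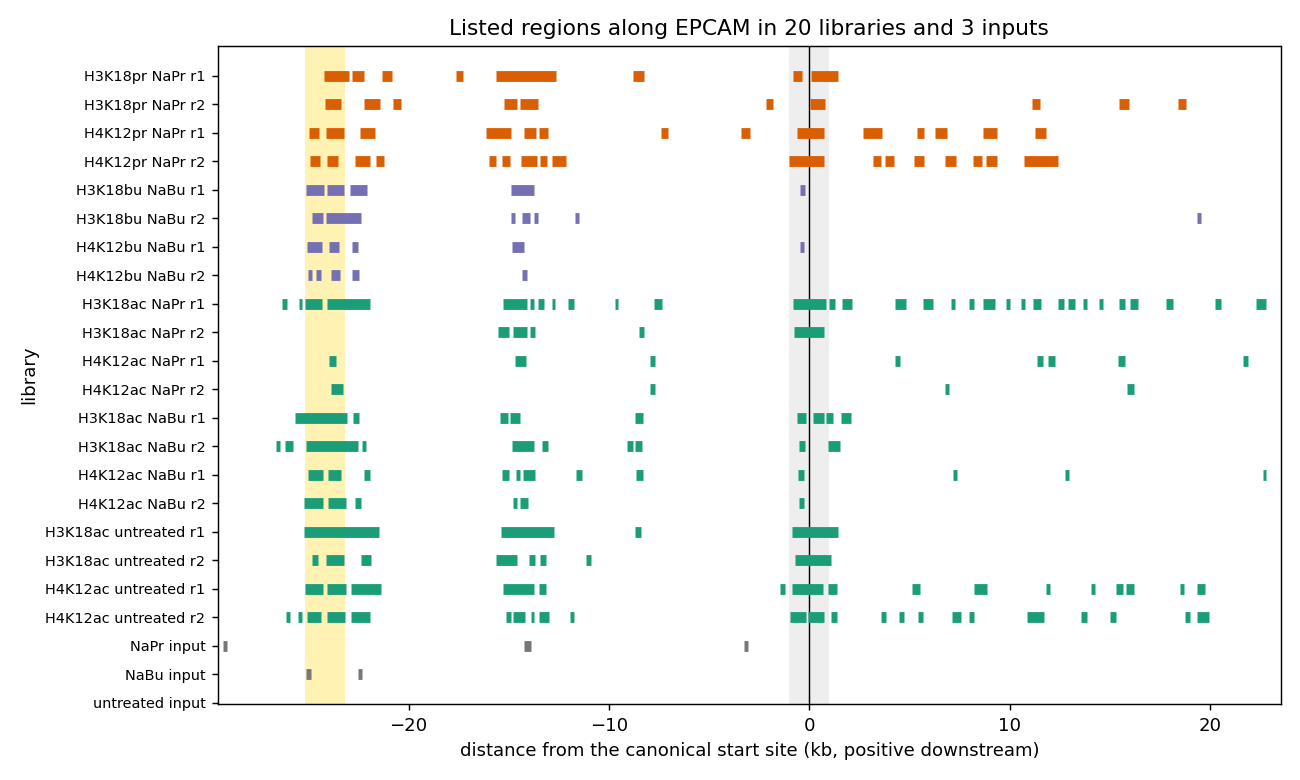
Regions listed along EPCAM (bars) in each library, by distance from the canonical start site in kb, with the colours of the CDH1 map. The 2 kb around the canonical start are shaded grey and the 2 kb around the 5′ end of the gene yellow, and 19 of 20 immunoprecipitated libraries have a bar in the yellow interval against 16 in the grey one.

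EPCAM coverage was 15.3% and 11.3% for H3K18pr, and for H4K12pr it was 18.7% and 21.2%. The butyryl marks covered less, H3K18bu 7.49% and 6.86% and H4K12bu 4.46% and 2.88%. Among acetyl libraries it was 28.1% and 6.16% in H3K18ac NaPr, 5.01% and 2.59% in H4K12ac NaPr, 11.4% and 12.2% in H3K18ac NaBu, and 8.29% and 5.79% in H4K12ac NaBu. Untreated libraries had 17.4% and 10.4% for H3K18ac and 19.7% and 19.6% for H4K12ac. The widest replicate gap, in H3K18ac NaPr, came from the library with 202787 regions. EPCAM percentiles ran from 97.9 to 98.7 in the butyryl libraries, above the 76.9 to 88.7 of the propionyl libraries, the reverse of their order in percentage points. Genes without a region held 30.9 to 39.5 in these butyryl and 7.61 to 9.63 in these propionyl libraries, and the part of this floor was not tested.

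VIM (chr10:17228241-17237593, plus strand) encodes vimentin, the intermediate filament of mesenchymal cells, and had the largest fold enrichment of the 10 genes. Its strongest region lay within 5 kb of the start in the 18 libraries that had one, and within 1 kb in 5 of them. The fold of that region over the local background was 47.4 and 31.5 for H3K18pr and 25.5 and 16.4 for H4K12pr. Outside the start site the most often covered place lay 1.62 kb downstream, in 15 of 20 libraries. The noncoding gene VIM-AS1 starts within 1 kb of it, and ChIP-seq does not separate the 2 genes. The VIM window was covered to 19.6% and 16.3% by H3K18pr, to 26.7% and 23.2% by H4K12pr, to 4.55% and 3.41% by H3K18bu and to 0% by both H4K12bu libraries. In acetyl libraries it was 18.7% and 17.9% (H3K18ac NaPr), 10.7% and 2.65% (H4K12ac NaPr), 14.5% and 8.25% (H3K18ac NaBu) and 4.32% and 3.84% (H4K12ac NaBu). Untreated libraries had 18.4% and 14.9% for H3K18ac and 14.5% and 12.9% for H4K12ac. A mesenchymal filament gene was thus among the most covered members in these epithelial cells, and only in H4K12bu did it have no region in both replicates. The NaPr input covered 9.10% of the VIM window, with its strongest region 9.62 kb downstream, and the part of this signal in the VIM values was not tested beyond the fits without regions over input peaks.

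SNAI1 (chr20:49982980-49988886, plus strand) and SNAI2 (chr8:48917598-48921740, minus strand) encode the repressors Snail and Slug, and their patterns over marks differed. SNAI1 coverage was 19.3% and 21.7% in untreated H3K18ac and 25.1% and 20.4% in untreated H4K12ac. It was 17.7% and 7.27% in H3K18ac NaPr, 1.21% and 0% in H4K12ac NaPr, 12.5% and 10.1% in H3K18ac NaBu and 3.63% and 0% in H4K12ac NaBu. Each treated library lay below both untreated libraries of its histone site. Propionyl coverage of SNAI1 was 15.2% and 6.71% (H3K18pr) and 21.2% and 11.3% (H4K12pr), and none of the 4 butyryl libraries had a SNAI1 region. The inputs covered 3.41%, 0% and 3.65% of SNAI1 in NaPr, NaBu and untreated cells, in NaPr more than either H4K12ac library.

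SNAI2 coverage was higher in H3K18 than in H4K12 libraries of every acylation and treatment. It was 26.6% and 23.3% in the H3K18pr libraries against 17.9% and 4.31% in the H4K12pr libraries, and 11.9% and 4.42% in H3K18bu against 2.21% and 1.86% in H4K12bu. For acetylation it was 6.86% and 20.03% against 4.801% and 1.27% in NaPr, 22.8% and 15.4% against 7.34% and 5.97% in NaBu, and 19.6% and 6.60% against 1.87% and 1.76% in untreated cells. The H3K18 and H4K12 libraries did not overlap in any of the 5 pairs of groups. SNAI2 had regions in 20 of 20 libraries, and its strongest one lay within 5 kb of the canonical start in 19. The inputs covered 2.01%, 0% and 0% of SNAI2 in NaPr, NaBu and untreated cells, in NaPr more than H4K12ac replicate 2.

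**Figure D5:**
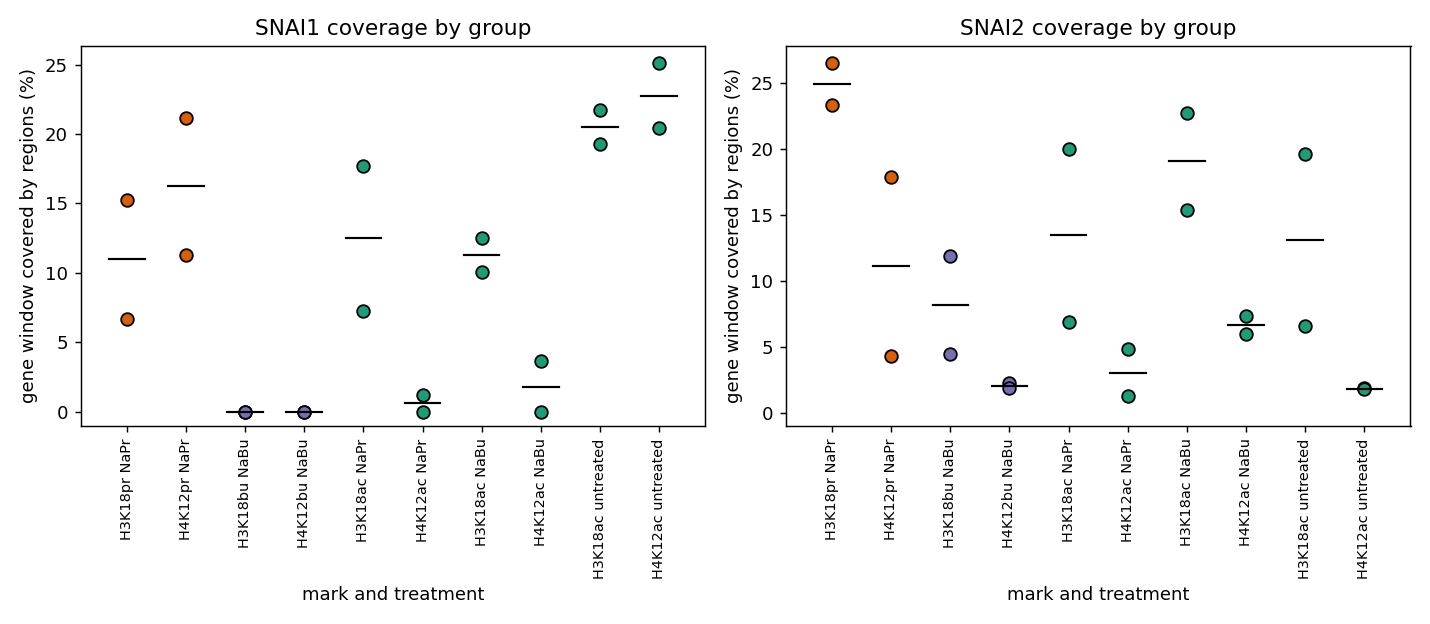
Percentage of the SNAI1 (left) and SNAI2 (right) window covered by regions in each of the 10 groups, with 1 point per library (2 per group) and a line at the group mean, orange for propionyl, purple for butyryl and green for acetyl. SNAI1 is at 0% in the 4 butyryl libraries and between 19.3% and 25.1% in the 4 untreated libraries, and each H3K18 group of SNAI2 lies above the H4K12 group of the same acylation and treatment.

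FN1 and ZEB1 were marked mainly around their start. FN1 (chr2:215360440-215436073, minus strand), the gene of fibronectin, had regions in 15 of 20 libraries and at most 3.16% of its window covered. Its strongest region lay within 5 kb of the start in 12 of those 15. ZEB1 (chr10:31318495-31529814, plus strand), a repressor of CDH1, had regions in 17 libraries over at most 1.85% of a long window, and the strongest lay within 1 kb of the start in 13. The fold of that region reached 30.3 in H3K18pr replicate 1, so the low percentile of ZEB1 went with a strong narrow region. ZEB1-AS1, a noncoding gene on the other strand, starts inside ZEB1 and runs over its start site, and ChIP-seq does not separate the 2 genes. The NaPr input covered 1.14% of ZEB1, more than any NaPr library but H3K18pr replicate 2 and H3K18ac replicate 1. The NaBu input covered 0.495%, more than any NaBu library but replicate 1 of H3K18ac and of H4K12ac. FN1 was covered to 0.761% in the NaPr input, 0.169% in the NaBu input and 1.03% in the untreated input.

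ZEB2, TWIST1 and CDH2 were near empty. ZEB2 (chr2:144364364-144521057, minus strand), the paralog of ZEB1, had regions in 14 libraries over at most 0.990% of its window, and none of the strongest lay within 5 kb of its start. The NaPr input covered 1.05% of ZEB2, more than any immunoprecipitated library, and the NaBu input 0.394%, more than any NaBu library. TWIST1 (chr7:19020991-19117636, minus strand) had regions in 10 libraries over at most 1.22%, of a body that the annotation extends far beyond the canonical transcript of 2169 bp. CDH2 (chr18:27932879-28177946, minus strand), the N-cadherin gene that replaces E-cadherin in mesenchymal cells, had 1 region in H3K18ac NaBu replicate 1 and 1 in H4K12ac NaBu replicate 1, covering 0.0725% and 0.0800%. The NaBu input covered more of CDH2, 0.447%, than any immunoprecipitated library did. TWIST1 was covered to 2.51% in the NaPr input and 1.13% in the NaBu input, more than in any immunoprecipitated library of those treatments, and to 0.723% in the untreated input, within the range of the untreated libraries.

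The first comparison asked whether acyl and acetyl marks of the same site and treatment covered the genes differently. Over both acyl marks together, CDH1 had a mean of 8.73% against 6.67%, EPCAM 11.02% against 9.94% and VIM 11.7% against 10.1%. A two-sided exact permutation test over libraries within the 4 pairs of groups, adjusted by Benjamini-Hochberg over 20033 genes, called 0 genes in either direction (0.0% of all genes) and 0 of the 10 members. At an unadjusted p under 0.05 it had 0.185% of genes higher and 2.71% lower, with 0 members among them. Groups that did not overlap in any pair on the percentile scale held 0.424% of genes higher and 0.13% lower, and 0 members. The smallest p this design allows is 0.00154, and CDH1 had p = 0.358 in the exact test. The propionyl and butyryl parts had opposite signs for CDH1, EPCAM, VIM, SNAI1 and SNAI2, and the comparisons below separate them.

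Propionyl against acetyl marks in NaPr cells had 1 member apart, about the share found in all genes. It was CDH1, whose mean was 13.8% against 5.39%, a difference of 8.46 points, with no overlap at either histone site (1 of 10 members, against 8.11% of all genes higher without overlap). The exact permutation p was 0.0556, the smallest that 36 arrangements allow, and 0.625 after adjustment over all genes. With equal numbers of regions the difference was 4.20 points and VIM was apart too, and at q under 0.05 SNAI2 was. On the percentile scale the CDH1 difference was 7.41, and 0 of 10 members were apart at both sites (5.65% of genes were higher and 7.55% lower). No member was lower without overlap in percentage points (0.774% of genes). The other 9 members were not apart at both sites, SNAI2 with 18.01% against 8.24% and VIM with 21.4% against 12.5%. At the start sites, CDH1, EPCAM and SNAI1 were occupied in both H4K12pr libraries and in neither H4K12ac NaPr library, as were 18.3% of all genes. No member was occupied only in H3K18pr or only in H3K18ac NaPr (0.574% and 4.61% of all genes), or in H4K12ac NaPr without H4K12pr (0.584%). Propionyl and acetyl libraries fell in different runs as read from the list names, and mark and run cannot be told apart.

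Butyryl against acetyl marks in NaBu cells went the other way in percentage points. CDH1, EPCAM, VIM and SNAI2 were lower without overlap at both sites (4 of 10 members), as were 19.2% of all genes, and 0.0% were higher. The mean of CDH1 was 3.61% against 7.96%, that of EPCAM 5.42% against 9.41%, that of VIM 1.99% against 7.72% and that of SNAI2 5.10% against 12.9%, each with an exact permutation p of 0.0556, the smallest possible, and 0.286 after adjustment. With equal numbers of regions VIM alone of the 4 stayed apart, and the differences of CDH1, EPCAM and SNAI2 went from -4.35, -3.99 and -7.77 points to -0.983, -1.01 and -0.0212. At q under 0.05 VIM and SNAI2 were no longer apart, and over the gene body alone SNAI2 was not. The direction depended on the scale: as percentiles CDH1 was higher by 4.46 without overlap, EPCAM by 4.06 and SNAI2 by 0.392, while VIM was higher without overlap at H3K18 (95.3 and 95.4 against 91.8 and 89.9) and lower at H4K12, where both butyryl libraries held the middle rank of empty genes. No member was lower without overlap at both sites as a percentile (2.41% of genes). The percentile put 5 members higher without overlap, against 23.7% of all genes, but CDH2, ZEB2 and TWIST1 among them had no region in any butyryl library, and ZEB1 none in H4K12bu, and hold the middle rank of empty genes there. CDH1 and SNAI1 start sites were occupied in both H3K18ac NaBu libraries and in neither H3K18bu library, as were 22.7% of all genes. For H4K12ac against H4K12bu there was no such member (4.76% of genes), nor any in the reverse direction at either site (0.025% at H3K18 and 0.0699% at H4K12). Both replicates of a butyryl mark together occupied no member start site, against 10.1% of all genes for H3K18bu and 5.62% for H4K12bu.

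NaPr against untreated acetylation likewise had 1 member apart, about the share found in all genes. It was SNAI1, with 6.54% against 21.6%, lower by 15.1 points without overlap at either site (1 of 10 members, against 10.8% of all genes lower), with an exact permutation p of 0.0556 and 0.492 after adjustment. No member was higher without overlap (0.464% of genes). SNAI1 was lower as a percentile too, by 36.9 without overlap (7.42% of all genes). With equal numbers of regions its difference went from -15.1 to -0.560 points, and it was no longer apart there or over the gene body alone. CDH1 and FN1 were apart too at q under 0.05, and CDH1 without regions over input peaks. CDH1, EPCAM and SNAI1 start sites were occupied in both untreated H4K12ac libraries and in neither H4K12ac NaPr library, as were 24.5% of all genes, and no member was on the other side (0.275%).

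NaBu against untreated acetylation had 4 mesenchymal members lower without overlap, VIM, FN1, ZEB1 and SNAI1, where 55.1% of all genes were also lower. SNAI1 had 6.56% against 21.6%, VIM 7.72% against 15.2%, FN1 0.317% against 2.45% and ZEB1 0.355% against 1.44%, each with an exact permutation p of 0.0556 and 0.100 after adjustment. With equal numbers of regions none of the 4 stayed apart, with SNAI1 at -0.560 points, VIM at -2.25, ZEB1 at -0.378 and FN1 at 0, and CDH1 was the 1 member apart, higher in NaBu. VIM was not apart without regions over input peaks (-2.72), and over the gene body alone VIM and SNAI1 were not apart and EPCAM was. On the percentile scale VIM and ZEB1 were higher in NaBu, by 9.63 and 5.83, and FN1 and SNAI1 were lower, by 7.40 and 15.2, with overlap at 1 of the 2 sites. CDH1 went opposite ways in percentage points, above the untreated libraries for H3K18ac and below them for H4K12ac, by 5.32 and -3.62, without overlap at either site. EPCAM overlapped for H3K18ac and was lower for H4K12ac, with means of 9.41% against 16.8%. Both were higher by 30.7 and 9.76 without overlap as percentiles, together with VIM, SNAI2 and CDH2 (5 of 10 members, against 16.9% of all genes). CDH2, however, had no region in any untreated library or in replicate 2 of either NaBu acetyl mark. It held the middle rank of empty genes there, as did ZEB1, FN1 and SNAI1 in H4K12ac NaBu replicate 2. SNAI2 start sites were occupied in both H4K12ac NaBu libraries and in neither untreated one, as were 0.0499% of all genes, and CDH1 and FN1 in the reverse direction, as were 28.0%. H3K18ac start sites gave no member in either direction (0.444% and 6.86% of genes). NaBu and untreated libraries fell in different runs as read from the list names, and treatment and run cannot be told apart. The names of the NaBu acetyl lists also carry the tag that the untreated lists carry, and groups here follow the labels.

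H3K18 against H4K12 compared the histone sites within each acylation and treatment, and within each run as read from the list names. SNAI2 had a mean of 15.7% against 4.93%, a difference of 10.8 points, and was the only member without overlap in all 5 pairs of groups, against 0.489% of all genes. Its exact permutation p of 0.000257 was the smallest that this design allows, and it was 0.0526 after adjustment over all genes, so that it did not pass 0.05. CDH1 followed with 9.47% against 5.69%, higher in 5 of 5 pairs, an exact permutation p of 0.00772 and 0.161 after adjustment. No gene of 20033 passed after adjustment (0.0%), while 11.9% had an unadjusted p under 0.05 with H3K18 higher, CDH1 and SNAI2 among them, and 2.23% with H4K12 higher. SNAI2 was also higher as a percentile, by 18.5, where the groups overlapped in at least 1 pair. Percentiles gave an adjusted p under 0.05 to 3.0% of genes with H3K18 higher and 6.49% with H4K12 higher, and separated 0.414% and 1.83% in all 5 pairs, with 0 members in each. With equal numbers of regions, without regions over input peaks or over the gene body alone, SNAI2 overlapped in at least 1 pair. Its difference of 10.8 points was 1.07 with equal numbers (exact permutation p = 0.306) and 5.93 without regions over input peaks (exact permutation p = 0.0221). Leaving out any of the libraries H4K12pr replicate 1, H3K18bu replicate 2, H3K18ac NaPr replicate 1 or untreated H3K18ac replicate 2 brought the adjusted p of SNAI2 under 0.05, and the first of these did so for CDH1.

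Start sites divided the histone sites mainly in NaPr acetylation. CDH1, EPCAM, SNAI1 and SNAI2 were occupied in both H3K18ac NaPr libraries and in neither H4K12ac NaPr library, as were 19.9% of all genes. FN1 was occupied in both H3K18pr and neither H4K12pr library (1.19% of all genes), SNAI2 likewise for untreated acetylation (1.77%) and CDH1 for NaBu acetylation (13.2%). Butyryl marks had no such member (2.79%), and no member was on the H4K12 side for the propionyl (3.8%), butyryl (0.17%), NaPr acetyl (0.295%), NaBu acetyl (0.0399%) or untreated acetyl marks (0.774%). Both replicates together occupied 7 member start sites in H3K18pr (44.2% of all genes), H3K18ac NaPr (53.8%) and untreated H3K18ac (64.6%). They occupied 5 in H4K12pr (50.7%), 6 in H3K18ac NaBu (44.1%), 6 in untreated H4K12ac (61.7%), 2 in H4K12ac NaBu (14.2%) and 0 in H4K12ac NaPr (19.7%).

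Further genes of each state showed how the members stood among their kind. Of 20 other epithelial genes, junction, keratin and epithelial regulator genes among them, 19 had an occupied start site in 10 or more libraries and 0 were never occupied, with a median percentile of 86.7. The 4 with the highest percentiles were KRT19 (99.9), KRT18 (99.9), KRT8 (99.6) and CLDN4 (99.2), keratins and a tight-junction claudin. Of 20 other mesenchymal genes, 7 had an occupied start site in 10 or more libraries and 2 in none, with a median percentile of 46.6. Among those with high percentiles were S100A4 (99.5), TGFBI (97.0) and TGFB1 (86.7), which encode a calcium-binding protein, a matrix protein and a growth factor. Over all protein-coding genes the median percentile was 47.0, and 53.3% had an occupied start site in 10 or more libraries.

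The 2 wider lists moved in the comparisons as follows. Propionyl coverage was above acetyl coverage without overlap in 4 of 20 epithelial and 2 of 20 mesenchymal genes, as in 8.11% of all genes, with median differences of 9.004 and 1.04 points against 1.07 for all genes. Butyryl coverage was below acetyl coverage in 9 and 4 (19.2% of all genes), with medians of -7.95 and -0.750 against -0.985. Acetyl coverage was below untreated in 4 and 3 genes for NaPr (10.8% of all genes), with medians of -7.98 and -2.56 against -1.53, and in 8 and 11 genes for NaBu (55.1% of all genes), where 1 mesenchymal gene was higher, with medians of -9.19 and -4.37 against -3.56. H3K18 coverage exceeded H4K12 coverage by a median of 4.05 points in the epithelial and 0.803 in the mesenchymal list against 0.0637 in all genes, with no gene of either list separate in all 5 pairs. Acyl and acetyl coverage differed by medians of 0.666 and -0.118 points against 0.0120. On the percentile scale, and without overlap, NaBu against untreated had 4 epithelial genes higher and 0 lower, and 4 mesenchymal genes higher and 5 lower. Of all genes 16.9% were higher and 12.4% lower. Butyryl against acetyl marks had 2 epithelial genes higher and 1 lower, and 4 mesenchymal genes higher and 1 lower (23.7% and 2.41% of all genes). NaPr against untreated had 2 epithelial genes lower, and 2 mesenchymal genes higher and 2 lower (10.4% and 7.42%). Propionyl against acetyl marks had 2 epithelial genes and 1 mesenchymal gene higher and 0 lower (5.65% and 7.55%).

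Markers of cell types were read in the same way. The 8 markers of colonic epithelium had a median percentile of 79.0, and 5 of them had an occupied start site in 10 or more libraries, CDX2 in 10, KRT8 in 19, KRT18 in 20 and EPCAM in 16 among them. The other 3, named here after their values were seen, were LGALS4 with 3 libraries and KRT20 and CDH17 with 1 each, the last 2 at median percentiles of 17.8 and 21.6. Markers of fibroblasts had a median of 18.6, with 1 of 6 occupied in 10 or more libraries, COL1A1 in 11. Markers of endothelium had a median of 55.7 with 0 of 4 so occupied, and those of leukocytes 54.0 with 1 of 4, CD14 in 14, while PTPRC, the defining leukocyte gene, was occupied in 0. Their part in the values of the members was not tested.

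The genes most like CDH1 and VIM over libraries were sought among 16297 protein-coding genes with a region in at least 10 of the 20 libraries. For CDH1 they were ANAPC1, CDA and KCTD19, with Spearman correlations of coverage of 0.971, 0.956 and 0.956, where the median over all genes was 0.607. For VIM they were BTG1, FOSL2 and PHLDA1, with 0.968, 0.968 and 0.966 and a median of 0.741. The points of these correlations share libraries that differ in length and local background, and the values are descriptions.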

How the data were processed

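ChIP-seq peak lists of 20 immunoprecipitated and 3 input libraries of SW480 cells were used. Per the labels and methods, the authors aligned reads to hg38 with Bowtie2 2.3.1 and called peaks against input with MACS2 2.1.0, after bcl2fastq 2.17.1 and cutadapt 1.8.1, separately in each library at a p-value threshold of 0.01 and without blacklisted regions, as tags in the list names say. The deposited fold (ratio of pileup to local background), −log10 p-value and −log10 q-value of each peak served for ranking, for filters and for description. The control of the input lists is not given in the sources used here. Region lists hold no read counts, so the study's test on reads was not run.

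Coverage, number of regions and start-site occupancy (overlap of at least 1 bp) were computed for every protein-coding gene in Python 3.11.15 (numpy 2.4.6, pandas 2.3.3) against GENCODE 44, and sequences were read with samtools 1.23.1. Coverage was compared with two-sided exact permutation tests of libraries within pairs of groups, adjusted by Benjamini-Hochberg over all genes at 0.05. Where 36 arrangements allow no p under 0.05, a gene was counted when groups did not overlap at either histone site. The lowest local background of each list was recovered by solving fold and p-value under a Poisson model. All 8 NaBu lists gave 4.27 fragments per kb, the value of the NaBu input, so it does not rank their depth. Scripts were tested on simulated data. Members, lists and tests were chosen with earlier results of these data known. All 10 members are named, and of each wider list the 4 genes with the highest median percentile, except 1 gene that is not reported here. Alternatives were regions with q under 0.05, equal numbers of regions, regions clear of input peaks, the gene body alone, percentiles, the replicate block, other definitions of the start site, each library left out and, chosen after seeing the data, the canonical transcript span.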

Additional observations from a re-analysis of the deposited data

Results flagged for a closer look

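Several genes moved in opposite directions in groups under the same kind of comparison, with every library of one group pair on one side and every library of the other pair on the other side. None of these differences between comparisons was tested, and all values are differences of group means in percentage points of the gene window. For propionyl minus acetyl marks in NaPr cells against butyryl minus acetyl marks in NaBu cells, CDH1 had 8.98 (H3K18) and 7.93 (H4K12) in NaPr and -7.04 and -1.67 in NaBu. EPCAM had 16.1 at H4K12 in NaPr and -4.60 (H3K18) and -3.37 (H4K12) in NaBu. VIM had 18.3 at H4K12 in NaPr and -7.39 (H3K18) and -4.08 (H4K12) in NaBu. SNAI2 had 11.5 at H3K18 in NaPr and -10.9 (H3K18) and -4.62 (H4K12) in NaBu. SNAI1 had 15.6 at H4K12 in NaPr and -11.3 at H3K18 in NaBu, and ZEB1 had 0.521 and -0.300 there. These comparisons also differ in run, as read from the list names, and in the length of the lists. With single libraries left out, CDH1 at H4K12 had 3.81 without H4K12pr replicate 1, 12.1 without replicate 2, and in NaBu -0.528 and -2.80 without replicates 1 and 2 of H4K12ac. SNAI2 at H3K18 had 4.91 and 18.1 without replicates 1 and 2 of H3K18ac NaPr, and -7.16 and -7.23 in NaBu without H3K18bu replicate 2 or H3K18ac NaBu replicate 1. Without H3K18ac NaBu replicate 1, VIM had -4.28 and ZEB1 -0.185 at H3K18, and without H4K12ac NaBu replicate 1 EPCAM had -2.12 at H4K12.

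Between NaBu and untreated acetylation, CDH1 was higher by 5.32 for H3K18ac and had -3.62 for H4K12ac, in which the list of NaBu replicate 2 was short. For H3K18 minus H4K12, EPCAM had -6.60 for propionyl and -5.74 for untreated acetyl marks, and 3.50 for butyryl, 13.3 for NaPr acetyl and 4.74 for NaBu acetyl marks. The EPCAM value of 13.3 rests on H3K18ac NaPr replicate 1, the list of 202787 regions, and was 2.36 without it and 24.3 without replicate 2. The untreated EPCAM value was -9.21 and -2.27 without replicates 1 and 2 of H3K18ac. VIM had -6.98 for propionyl marks and 3.98 for butyryl, 11.6 for NaPr acetyl, 7.29 for NaBu acetyl and 2.93 for untreated acetyl marks. The VIM values were 7.62 without H4K12ac NaPr replicate 2, 4.17 without H3K18ac NaBu replicate 1, and 1.18 and 4.68 without replicates 1 and 2 of untreated H3K18ac. Leaving out a library moved 12 of the 29 values by over 1.5 times and changed the sign of 0.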

How the results depend on the processing

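For H3K18 against H4K12 the 0 genes with an adjusted exact permutation p under 0.05 became 1902 on the percentile scale, and ranged from 0 to 644 when each library was left out, the 644 without H4K12pr replicate 1. Genes without overlap for propionyl against acetyl marks numbered 1780, and 2959 with the replicate block, with 2002 to 7871 when each library was left out, the most without H3K18ac NaPr replicate 1. For butyryl against acetyl marks 3846 became 1535 at q under 0.05, 1340 with equal numbers of regions and 2490 in the gene body, with 3866 to 11652 when each library was left out, the most without H4K12ac NaBu replicate 2. As percentiles CDH1 (4.46), EPCAM (4.06) and SNAI2 (0.392) reversed there. For NaPr against untreated cells 2261 became 1336 with equal numbers, 3577 as percentiles and 3864 with the replicate block, with 2426 to 11554 when each library was left out, the most without H3K18ac NaPr replicate 1. For NaBu against untreated cells 11084 became 3290 with equal numbers and 5865 as percentiles, where VIM (9.63) and ZEB1 (5.83) reversed. Fewer libraries in a group make overlap rarer by construction, and the cause of the other changes was not tested. The epithelial minus mesenchymal difference of 5.00 points became 2.29 with equal numbers, 3.33 without regions over input peaks, 40.2 as percentiles and 2.38 over the canonical transcript span, which was chosen after seeing the data. Start-site occupancy of 70% (epithelial) and 42.5% (mesenchymal) became 40% and 12.5% with equal numbers and 37.5% and 11.9% when a region had to cover the start site, and the epithelial share became 77.5% at the 5′ end of the gene. The labels did not pair libraries by replicate number, except that untreated replicates 1 and 2 of both acetyl marks are tagged cnt1 and cnt2. What these tags share is not given, and the main test did not pair by them. With 2 numbers per group the correlations of replicate deviations (0.0847 to 0.348) do not settle the pairing. The replicate block gave SNAI2 and CDH1 an exact permutation p of 0.00195 for H3K18 against H4K12. It gave 0.125, the smallest possible, to members apart in the other comparisons. Over all values and alternatives, 343 were classed as unchanged, 30 moved, 19 fell below the threshold, 5 rose above it and 5 reversed. The unchanged class was broad and does not mean that values stayed close. It held gene counts that differed, such as 1780 and, as percentiles, 2643 for propionyl against acetyl marks. Counts of 0 that stayed 0 for acyl against acetyl marks were also in it. So was SNAI2 for H3K18 against H4K12, whose 10.8 points became 1.07 with equal numbers, since it passed adjustment in neither.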
